A study of Mus musculus with 7 samples.

Results

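The proliferation genes described here are 40 of the 32285 genes in the count tables, chosen by their symbols. They comprise 15 genes of S phase, 23 of G2 and mitosis, and a further 2, Stmn1 and Hist1h2ae. Their transcripts were counted by droplet single-cell RNA-seq in leukocytes (CD45+, DRAQ7-, that is living cells with the pan-leukocyte surface protein) sorted from the left brain hemisphere of wild-type (WT) female mice, 8 to 9 weeks old, that carried tumours of the mouse glioma line GL261. Tissue was taken on day 21 after implantation. The mice were untreated, received PT2385, an inhibitor of the hypoxia-inducible transcription factor HIF-2α, at 10 mg/kg from day 7, received immune checkpoint blockade (ICB, the antibodies aPD-1 and aTIM-3), or received PT2385 together with ICB (the combination). The protocols list drug vehicle and isotype antibodies as controls without saying which of them the untreated mice were given, and they name a drug course of 21 days although the tissue was collected on day 21 itself. There were 7 libraries, 1 untreated and 2 of each treated group, and each held 5000 cells from each of 2 pooled mice, 14 mice in all. The other pool of untreated mice is not used here. Within a group the libraries are numbered pool 1 and pool 2 as names only.

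A dividing cell transcribes these genes in successive waves. Before and during S phase, transcription factors of the E2F family drive genes for the replicative helicase (the Mcm genes), for its loading (Cdc6, Cdt1), for the polymerase clamp Pcna and for nucleotide supply (Tyms, Rrm1, Rrm2, Tk1). In G2 and mitosis, complexes that bind a promoter element known as the CHR drive genes for Cdk1 and its cyclins, the centromere, the spindle and the anaphase-promoting complex. Mki67 encodes a protein that coats mitotic chromosomes, and Top2a encodes the topoisomerase that untangles sister chromatids. In tumours, T cells divide after meeting antigen, whereas resident microglia renew themselves slowly.

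Words of the E2F and CHR types stood in some of the promoters and were absent from others. A few promoters with such words are shown because the levels of these genes carry the results below. RefSeq promoter windows (GRCm38.p6, 250 bases before to 50 after the annotated start, 300 in all) were matched for 33 of the 40 genes, and 2 of these genes had 2 windows. Capitals mark letters found by exact search of both strands: the E2F-type words TTTCCCGC, TTTGGCGC, TTTCGCGC and TTTGCCGC and the CHR-type words TTTGAA and TTCGAA. In Mcm5 and Mcm6, E2F-type matches on opposite strands overlap in 1 stretch of capitals. Each line ends at the last base before the start and reads 5′ to 3′ on the strand of the gene. Mcm5 lies at chr8:75109346-75109508 (plus strand), Mcm6 at chr1:128359706-128359825 (minus), Mki67 at chr7:135716380-135716499 (minus), Top2a at chr11:99024190-99024378 (minus), Hmgb2 at chr8:57511615-57511842 (plus) and Cdk1 at chr10:69352913-69353053 (minus).
Mcm5: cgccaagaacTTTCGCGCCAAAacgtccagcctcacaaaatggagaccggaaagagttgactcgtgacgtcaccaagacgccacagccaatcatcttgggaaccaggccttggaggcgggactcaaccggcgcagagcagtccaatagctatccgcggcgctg
Mcm6: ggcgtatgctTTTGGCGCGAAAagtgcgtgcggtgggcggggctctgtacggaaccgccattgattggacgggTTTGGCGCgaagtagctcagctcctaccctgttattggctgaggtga
Mki67: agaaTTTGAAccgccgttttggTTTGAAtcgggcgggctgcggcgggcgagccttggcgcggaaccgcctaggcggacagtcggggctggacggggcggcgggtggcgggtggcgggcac
Top2a: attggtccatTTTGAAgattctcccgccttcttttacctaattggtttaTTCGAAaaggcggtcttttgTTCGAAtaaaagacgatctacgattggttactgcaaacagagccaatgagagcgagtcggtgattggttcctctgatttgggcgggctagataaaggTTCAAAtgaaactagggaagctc
Hmgb2: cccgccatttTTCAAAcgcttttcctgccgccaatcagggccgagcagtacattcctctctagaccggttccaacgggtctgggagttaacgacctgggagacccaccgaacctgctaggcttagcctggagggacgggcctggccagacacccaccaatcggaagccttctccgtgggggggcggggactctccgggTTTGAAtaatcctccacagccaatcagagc
Cdk1: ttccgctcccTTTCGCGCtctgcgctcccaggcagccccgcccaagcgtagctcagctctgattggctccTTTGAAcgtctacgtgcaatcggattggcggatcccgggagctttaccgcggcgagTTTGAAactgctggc

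An E2F-type word stood in a window of 7 of 13 S-phase genes and of 1 of 20 G2 and mitosis genes (Cdk1). Over all 27025 genes with a window the share was 2.6%. The S-phase genes without such a word were Mcm2, Pcna, Tyms, Rrm1, Rrm2 and Tk1. A CHR-type word stood in 16 of 20 G2 and mitosis genes and in 2 of 13 S-phase genes (Mcm2 and Mcm7), against 21.7% of all those genes. The windows of those 16 G2 and mitosis genes each also held CCAAT or its reverse complement. The pair of words occurred in 7.52% of all 32851 windows. A match of letters is a description of the window and not a measured binding site.

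The libraries held 59839154 to 81960504 UMIs (unique molecular identifiers, 1 for each captured transcript). Of 41033 barcodes, 38498 were kept as single cells after a filter on low-quality cells and the removal of 1918 likely doublets. The same barcode sequence occurred in 2 or more libraries for 180 sequences. Cell classes were gated by the number of marker genes detected in a cell. At the edge of the gates, 2033 cells had exactly the 7 of 14 monocyte/macrophage markers required and 145 of them held both Mki67 and Top2a, while 1831 cells had 1 marker fewer and 160 of them held both. For the 10 microglia markers (8 required) the numbers were 654 cells with 20 and 604 with 29. A further 6855 cells passed no gate and 2122 passed more than 1 (called mixed). For tests, counts were summed per class and library, for 7 classes with 30 cells or more in every library. T cells that met none of the subset gates also had that many, but as a remainder they were not tested. Levels are given as CPM, the UMIs of a gene per 1000000 UMIs of that class and library. In such sums, fewer cycling cells and less RNA per cycling cell cannot be told apart.

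In the whole sort, 1681 of 38498 cells (4.37%) held at least 1 UMI of Mki67 and 1 of Top2a. The share was 3.29% in the untreated library, 4.76% and 4.27% with PT2385, 7.04% and 4.21% with ICB, and 3.69% and 3.51% with the combination. The first ICB pool stood above the other 6 libraries, which lay within a narrow band. Cells with both genes had a median of 21488 UMIs, against 9131 in the other cells, and the doublets that had been removed held both genes in 6.38% to 19.0% of cases by library. After each cell was thinned to 3000 UMIs, leaving out shallower cells, 674 of 33074 cells (2.04%) still held both. Another 2839 cells held Mki67 alone and 2616 held Top2a alone. Mixed cells contributed 344 of the 1681 cells with both genes, and cells without a gate 153.

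The share of cells with both genes was high in CD8 T cells, regulatory T cells and dendritic cells of type 1, and low in NK cells, monocytes and macrophages, microglia and migratory dendritic cells. In CD8 T cells it averaged 16.0% ± 5.16 (SD, n = 7 libraries), or 9.74% ± 3.28 after thinning. Regulatory T cells (Foxp3-positive) averaged 19.4% ± 5.44, or 9.59% ± 3.02 after thinning. Conventional CD4 T cells averaged 5.54% ± 1.55, or 2.26% ± 1.02 after thinning. Their gate required the T-cell markers and Cd4, no Foxp3 or CD8 marker, and fewer than 3 of the 5 regulatory T-cell markers. Cells with Cd4 and without Foxp3 that held 3 or more of those markers (Ctla4, Il2ra and Tnfrsf4 among them) were thus left out of this class. In NK cells the share was 2.60% ± 1.06 and in the monocyte/macrophage class 2.41% ± 2.10. Microglia (1.31% ± 1.17) and migratory dendritic cells (2.04% ± 0.748) completed the classes found in every library. Choroid plexus epithelium, a non-dividing cell type that served as the background class, held both genes in 1 of 1341 cells at a median depth of 7861 UMIs, and in 0 of 1192 after thinning.

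**Figure D1:**
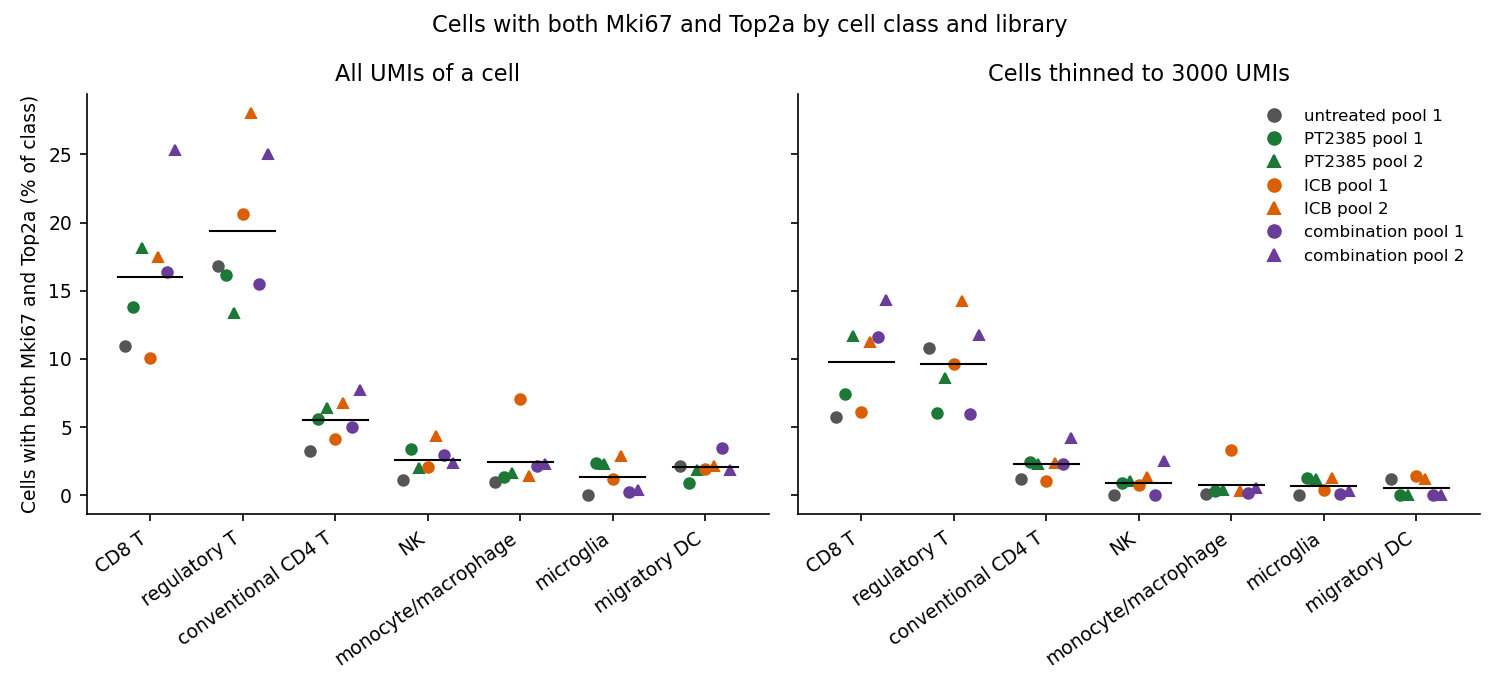
Share of cells with both Mki67 and Top2a (% of the class, linear axis) in the 7 classes of every library, with all UMIs at left and after thinning to 3000 UMIs at right. Each point is 1 library and the line is the mean of 7; CD8 T and regulatory T cells stand above the other classes in both panels, and the first ICB pool stands apart in the monocyte/macrophage class at 7.07%.

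The order of the shares was tested between neighbouring classes within libraries, on thinned cells, with an exact sign-flip permutation test over 6 pairs (two-sided, smallest possible p = 0.0156). The order was taken from the mean thinned shares of these same libraries. The choice of pairs and the sign of each mean difference were thus set by the data tested. Regulatory T cells exceeded conventional CD4 T cells by 7.34 percentage points ± 3.05 (SD), in 7 of 7 libraries (exact p = 0.0156, adjusted p = 0.0469). The gates split these classes by the count of regulatory T-cell markers as well as by Foxp3. The part of that split in the difference was not tested. Conventional CD4 T cells exceeded NK cells by 1.33 ± 0.615 points, also in 7 of 7 libraries (exact p = 0.0156, adjusted p = 0.0469). CD8 T and regulatory T cells did not differ beyond their spread (0.152 ± 4.01 points, 4 of 7 libraries, exact permutation p = 0.906), and without thinning the mean difference had the other sign, at -3.34 points. NK cells, monocytes and macrophages, microglia and migratory dendritic cells could not be placed in order, with adjusted exact p = 0.906 for each step.

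The other classes were not tested, most of them because they had fewer than 30 cells in some libraries. Type 1 conventional dendritic cells, which present antigen to CD8 T cells, held both genes in 60 of 230 cells (26.1%, exact 95% Clopper-Pearson interval 20.5% to 32.3%, counting error only), at a median depth of 24278.5 UMIs, and in 12.7% after thinning. That thinned share lies near those of CD8 T and regulatory T cells, whose cells were shallower before thinning (medians of 8072 and 8360 UMIs). Type 2 conventional dendritic cells held both genes in 17 of 191 cells (8.90%), border-type macrophages in 16 of 180 (8.89%), mast cells or basophils in 23 of 250 (9.20%), B or plasma cells in 20 of 194 (10.3%) and plasmacytoid dendritic cells in 3 of 201 (1.49%). Their median depths ran from 5313 UMIs (mast cells or basophils) to 19487.5 (border-type macrophages). After thinning the shares were 5.24%, 4.02%, 5.42%, 6.94% and 0.513% in that order. T cells that met the T-cell gate but none of its subset gates (1601 cells) held both in 15.2%, or 6.51% after thinning.

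The 40 genes differed in how much of their RNA lay in cells with both Mki67 and Top2a. Since those genes define the cells, their own enrichment is part of the definition. Ccna2, the cyclin of late S phase and G2, had 92.8% of its UMIs in the 1681 cells, Rrm2 (the regulated subunit of ribonucleotide reductase) 91.1%, Nusap1 (a spindle protein) 90.5% and Cenpf (a kinetochore protein) 89.2%. At the other end, Cdt1, a helicase loading factor, had 23.6%, Pcna 24.6%, Mcm4 32.6% and Mcm3 34.6% there. Those S-phase genes were therefore read mostly from cells in which Mki67 or Top2a was not seen. Among the G2 and mitosis genes, Cenpa, the histone variant of the centromere, had 36.3% of its UMIs in cells with both genes, and Hmgb2, a chromatin protein, had 42.0%. Hmgb2 was detected in 94.9% of cells with both genes and in 63.1% of the others, and Pcna in 79.9% and 41.8%.

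**Figure D2:**
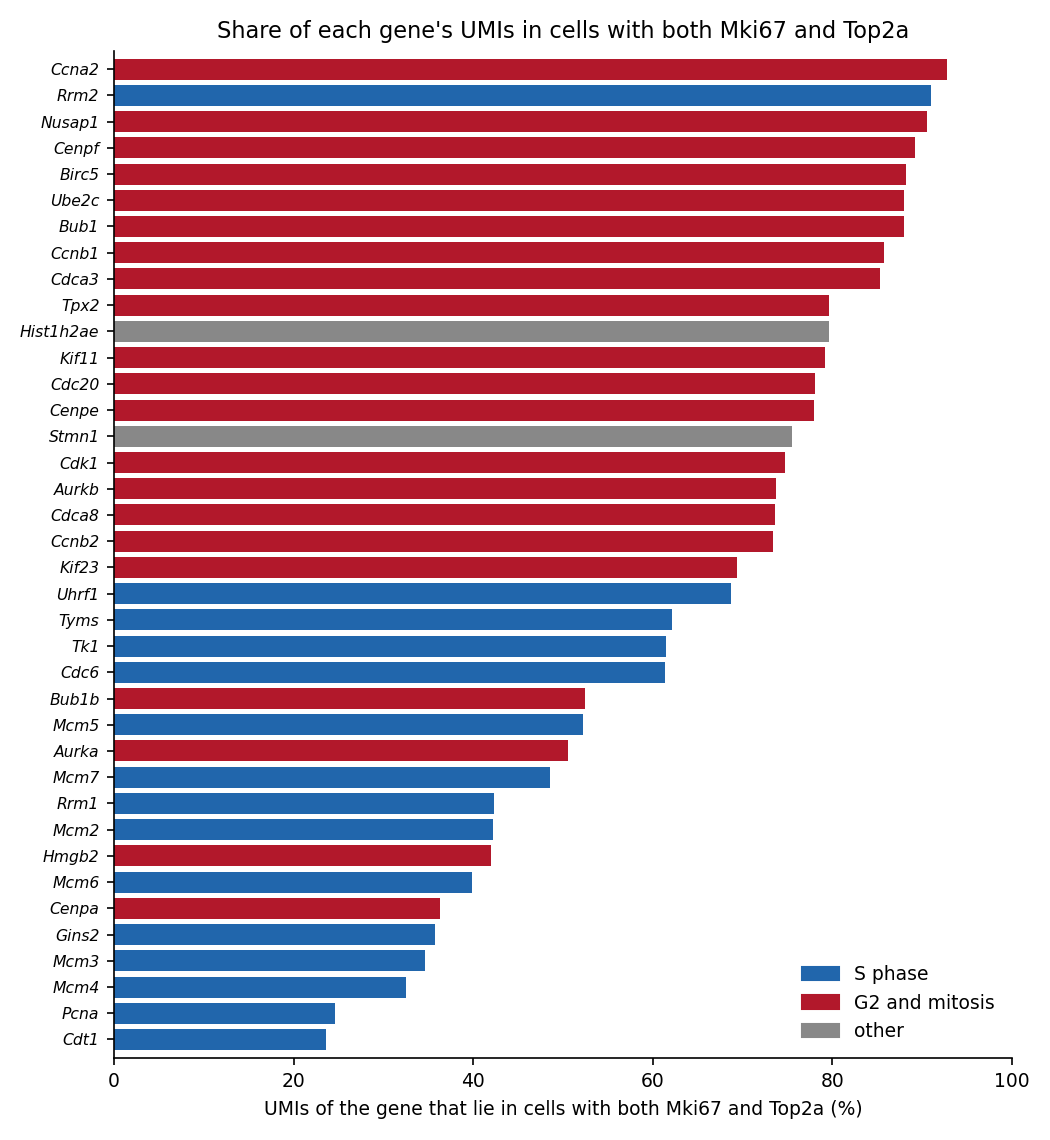
Share of each gene's UMIs (%, linear axis from 0) that lie in the 1681 cells with both Mki67 and Top2a, for the 38 other proliferation genes, coloured by role, over all 7 libraries. The bars run from 23.6% for Cdt1 to 92.8% for Ccna2, and Cenpa and Hmgb2 lie lowest among the G2 and mitosis genes.

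Over the 7 classes, 39 of the 40 genes had their highest mean level in CD8 T cells (27 genes) or regulatory T cells (12 genes, Mki67, Mcm6 and Cenpa among them). Cdt1 was the exception, at 32.7 CPM ± 9.52 in NK cells and 29.7 ± 4.31 in CD8 T cells (SD, n = 7), which do not differ beyond that spread. The mean level of Mki67 was 220 CPM in regulatory T cells, 207 in CD8 T cells and 14.7 in microglia, the lowest class. Hmgb2 ranged from 135 CPM in microglia to 875 in CD8 T cells, and Pcna from 37.8 in migratory dendritic cells to 132 in CD8 T cells. In choroid plexus epithelium the mean over 4 libraries was 0.541 CPM for Mki67, 13.7 for Hmgb2 and 36.2 for Pcna, so the mean level of Pcna in migratory dendritic cells lay within 1 SD (7.39 CPM, n = 7) of that background.

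In CD8 T cells, the cytotoxic T cells, 0 of the 40 genes passed a test, while 22 of them, mostly G2 and mitosis genes, had higher levels in both combination pools than in the other 5 libraries, against 7.51% of the 9413 genes at 5 CPM or more. The roles were not tested against each other. Mki67 stood at 109 CPM in the untreated library, 160 and 206 with PT2385, 166 and 238 with ICB, and 272 and 300 with the combination. Top2a stood at 172 untreated, 199 and 272 with PT2385, 196 and 266 with ICB, and 346 and 395 with the combination. For both genes the combination pools lay above the other 5 libraries and the untreated library lay lowest, while PT2385 and ICB pools overlapped.

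The same order held for Birc5, a subunit of the chromosomal passenger complex, with 67.2 CPM untreated, 84.7 and 95.02 with PT2385, 78.6 and 119 with ICB, and 165 and 161 with the combination. Hmgb2 measured 588 CPM untreated, 711 and 884 with PT2385, 706 and 1026 with ICB, and 1147 and 1065 with the combination. Ube2c, the ubiquitin-conjugating enzyme of the anaphase-promoting complex, measured 101 CPM untreated, 75.4 and 121 with PT2385, 73.5 and 152 with ICB, and 247 and 252 with the combination. The 22 genes whose combination pools lay above all 5 other libraries were Tyms, Tk1 and 20 G2 and mitosis genes. In Bub1, Tpx2 and Kif23, the other G2 and mitosis genes, combination pool 1 lay below another library.

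Stmn1, the tubulin-binding protein, measured 252 CPM untreated, 264 and 331 with PT2385, 249 and 390 with ICB, and 388 and 416 with the combination, so the combination and ICB pools overlapped. Apart from Tyms and Tk1, no S-phase gene lay higher in both combination pools than in all other libraries. Pcna measured 106 CPM untreated, 103 and 137 with PT2385, 135 and 172 with ICB, and 126 and 144 with the combination. Mcm3 measured 54.2 untreated, 62.5 and 81.1 with PT2385, 82.1 and 97.9 with ICB, and 74.5 and 88.2 with the combination. Mcm6 measured 102 untreated, 114 and 127 with PT2385, 103 and 120 with ICB, and 87.5 and 130 with the combination. For all 3 helicase or clamp genes the combination pools overlapped the ICB pools. The UMIs of the 15 S-phase genes amounted to 0.379 of those of the 23 G2 and mitosis genes in the untreated library, 0.378 and 0.366 with PT2385, 0.424 and 0.345 with ICB, and 0.243 and 0.267 with the combination, so the combination pools had the lowest ratios.

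Cells were also counted by the sets they expressed. Among CD8 T cells thinned to 3000 UMIs, those with at least 3 G2 and mitosis genes (Mki67 and Top2a not counted) but fewer than 3 S-phase genes made up 5.45% in the untreated library, 5.26% and 4.38% with PT2385, 1.42% and 6.95% with ICB, and 9.76% and 9.72% with the combination. Cells with at least 3 S-phase genes but fewer than 3 of the other set made up 4.17% untreated, 7.89% and 8.03% with PT2385, 7.55% and 9.09% with ICB, and 3.66% and 4.63% with the combination. This class is a range and not a cell type, and 102 of the 1456 cells lay at the cut while 369 lay 1 gene below it.

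No gene of the 40 passed the test in CD8 T cells (edgeR's quasi-likelihood test, Benjamini-Hochberg adjusted p under 0.05 over all genes tested), and few genes did at all. In the combination against the untreated library, 0 of 40 passed (0.086% of 10468 genes did), all 40 had a positive log2 fold change, and the median was 0.95 against 0.01 over all genes. Without adjustment, 28 of the 40 had p under 0.05, against 6.83% of all genes, and DESeq2 called 1 (Mki67). The median was 1.16 for the 23 G2 and mitosis genes and 0.44 for the 15 S-phase genes. Mki67 had the smallest adjusted p in edgeR, at a log2 fold change of 1.31 ± 0.257 (SE, adjusted p = 0.159), followed by Birc5 (1.19 ± 0.247, adjusted p = 0.180). Over 12 alternatives the adjusted p of Mki67 ran from 9.6e-06 to 0.375 and passed in 4 of them. The untreated group is a single library, which the fit assumes to vary like the others. Because many of the 40 genes are read from the same cells, their number does not add replicates to it.

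In the combination against ICB alone, 0 of 40 genes passed in edgeR (0.00955% of 10468 genes did), 15 had an unadjusted p under 0.05 (8.61% of all genes), and DESeq2 called 0. All 23 G2 and mitosis genes had positive log2 fold changes with a median of 0.62, whereas 6 of the 15 S-phase genes did, with a median of -0.02. Both combination pools lay above both ICB pools for 24 of 40 genes (23.6% of all genes at 5 CPM or more) and below them for 2 (13.5%). Ube2c had 1.10 ± 0.291 and Cenpa 0.84 ± 0.222 (SE, edgeR adjusted p = 0.251 for each). Leaving out ICB pool 2, which leaves a lone ICB library, moved the log2 fold change of Ube2c to 1.70. The interaction of the treatments had 0 of 40 genes past the threshold in edgeR (0% of genes), 3 at an unadjusted p under 0.05 (5.90% of all genes) and 0 in DESeq2. Its smallest p belonged to Mcm7, a helicase subunit, at -1.30 ± 0.3497 (adjusted p = 0.557).

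**Figure D3:**
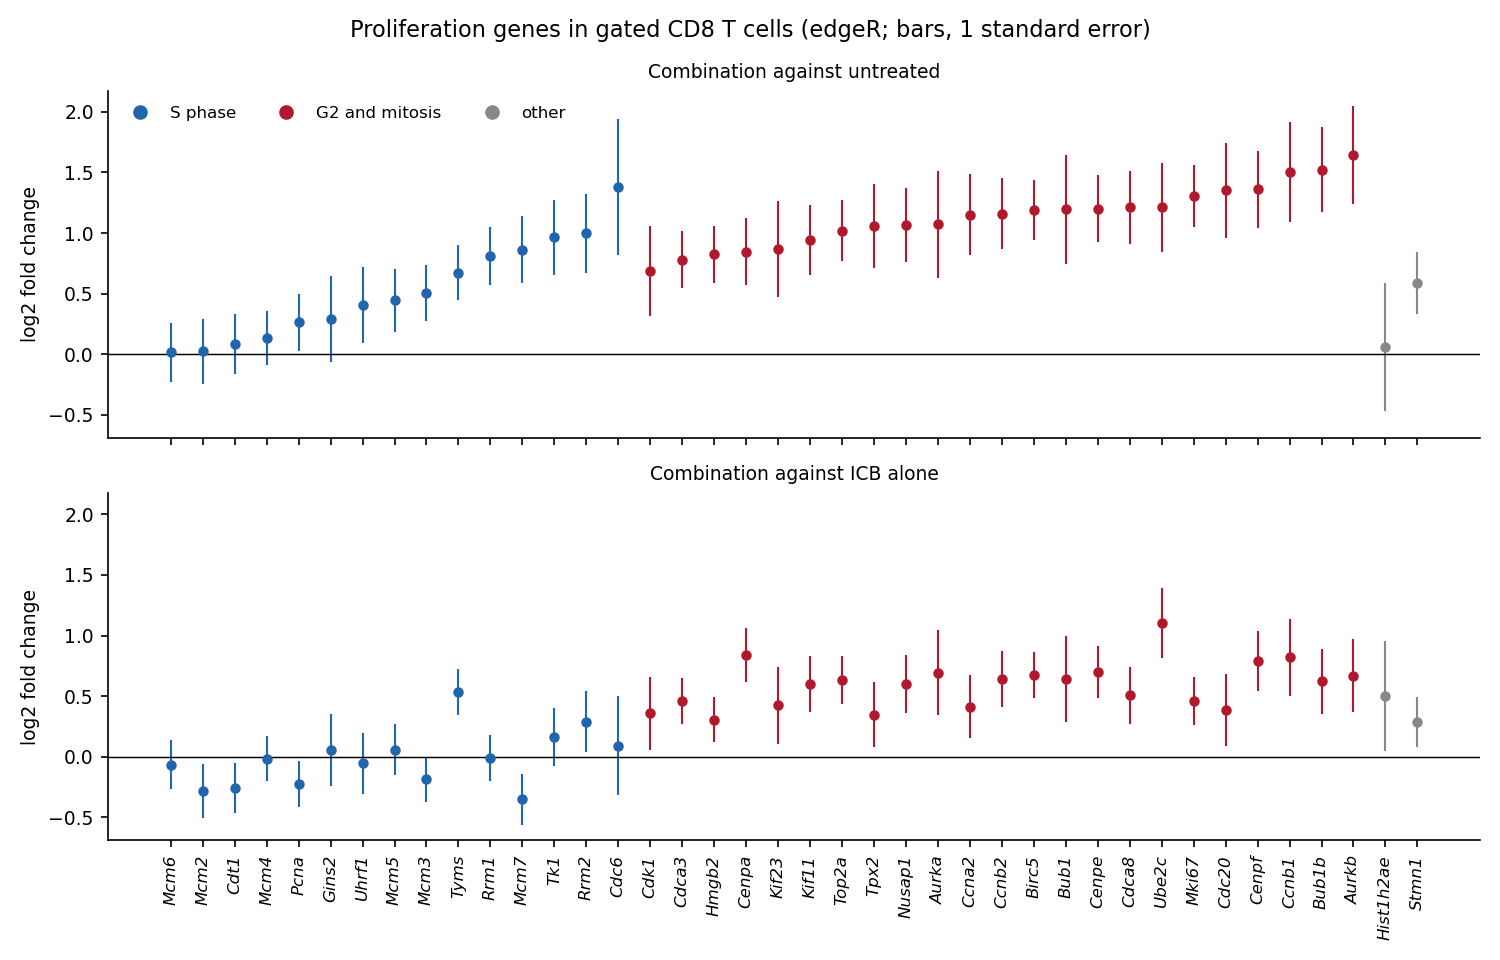
Log2 fold changes (edgeR, linear axis) of the 40 proliferation genes in gated CD8 T cells, for the combination against the untreated library (top) and against ICB alone (bottom); bars are 1 standard error. G2 and mitosis genes lie above 0 in both panels, with medians of 1.16 and 0.62, while S-phase genes lie around 0 in the lower panel.

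The effects of PT2385 and of ICB in CD8 T cells were also estimated over all libraries, the combination pools included. With PT2385, in an additive model of 4 libraries with and 3 without the drug, 0 of 40 genes passed in edgeR (0% of 9950 genes), 18 had an unadjusted p under 0.05 (6.82% of all genes), and DESeq2 called 0. The G2 and mitosis genes had positive fold changes in 23 of 23 cases with a median of 0.52, and the S-phase genes in 10 of 15 with a median of 0.11. With ICB, 0 of 40 passed in edgeR (0.0402% of genes), 25 had an unadjusted p under 0.05 (5.78% of all genes), and DESeq2 called 2 (Mki67 and Cenpf). The medians were 0.60 for G2 and mitosis genes and 0.29 for S-phase genes. These comparisons share the combination libraries. The counts that follow come from an alternative setting and are given without the share of all genes called. They show only how the calls depend on that setting. Without the filter on low counts, 7 genes rose with PT2385, 18 with ICB, 5 in the combination against ICB and 19 against the untreated library.

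The share of CD8 T cells with both Mki67 and Top2a was 11.0% untreated (35 of 319 cells), 13.8% and 18.1% with PT2385, 10.0% and 17.5% with ICB, and 16.4% and 25.3% with the combination. After thinning the shares were 5.77%, 7.46% and 11.7%, 6.13% and 11.2%, and 11.6% and 14.4% in that order, with 1 to 13 shallower cells left out of a library. The mean was 18.4% in the 4 libraries with PT2385 and 12.8% in the 3 without, a difference of 5.58 points that did not pass (exact permutation p = 0.171, adjusted p = 0.857 over 14 such tests, smallest possible p = 0.0286). Markers of other cells varied in this gate: the 14 monocyte/macrophage markers, all detected, summed to 1178 to 2945 CPM, with Ly6c2, which CD8 T cells also express, the most abundant, and the 8 NK markers summed to 392 to 3695 CPM, led by Gzma. The lowest monocyte/macrophage sum was in combination pool 2 and the highest NK sum in the untreated library. Their part in the results was not tested.

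In conventional CD4 T cells, the helper cells, 0 genes passed a test, and the levels rest on few dividing cells. Mki67 stood at 58.1 CPM untreated, 32.9 and 61.8 with PT2385, 42.8 and 48.1 with ICB, and 78.5 and 78.6 with the combination. Cenpf stood at 32.7 CPM untreated, 4.49 and 11.2 with PT2385, 3.06 and 3.43 with ICB, and 80.1 and 25.3 with the combination, with 92 UMIs in all. Cenpf was thus highest in combination pool 1, while pool 2 lay below the untreated library. Stmn1 measured 41.8 CPM untreated, 70.3 and 73.0 with PT2385, 38.2 and 53.2 with ICB, and 92.9 and 185 with the combination, so the 4 libraries with PT2385 lay above the 3 without, as they did for Pcna (2 of 36 genes, against 3.64% of all). Of the 36 genes at 5 CPM or more in this class, 16 were higher in both combination pools than in all 5 others, against 6.94% of 9572 genes.

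In edgeR, 0 of 35 tested genes passed for the combination against ICB in conventional CD4 T cells (0.0831% of 8428 genes did), 15 had an unadjusted p under 0.05 (8.03% of all genes), and DESeq2 called 0. All 21 G2 and mitosis genes tested had positive log2 fold changes with a median of 1.88, and 8 of 13 S-phase genes did, with a median of 0.07. The smallest adjusted p was that of Cenpf (log2 fold change 4.01 ± 0.7004 SE, adjusted p = 0.0675), and without combination pool 2 it passed at 0.00221. Stmn1 had 1.26 ± 0.277 for PT2385 (adjusted p = 0.168), where 0 of 28 tested genes passed in edgeR (0.0651% of 7676 genes), 3 had an unadjusted p under 0.05 (7.31% of all genes) and DESeq2 called 0. The 14 monocyte/macrophage markers, all detected, summed to 1472 to 2226 CPM in this gate, with Plac8 the most abundant, and the 5 choroid plexus markers to 1.82 to 1561, highest in combination pool 1, and their part in the results was not tested. The class held 52 to 100 cells in a library, and 3 to 6 of them had both Mki67 and Top2a, so these levels rest on few dividing cells. ICB (0.13% of genes called), the combination against untreated (0.0119%) and the interaction (0.0119%) likewise had 0 genes past the threshold in edgeR and in DESeq2, with 3, 2 and 13 at an unadjusted p under 0.05. Over all genes the shares with such an unadjusted p were 7.56%, 4.67% and 5.48% in that order.

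Regulatory T cells, which restrain other T cells, had levels as high as CD8 T cells but no common direction with treatment. Mki67 stood at 279 CPM untreated, 106 and 183 with PT2385, 239 and 228 with ICB, and 233 and 272 with the combination. Top2a stood at 244 untreated, 149 and 235 with PT2385, 263 and 310 with ICB, and 170 and 333 with the combination. Mki67 was lowest in the 2 pools given PT2385 alone, and the combination pools overlapped the ICB and untreated libraries. Mcm5, a helicase subunit, measured 39.8 CPM untreated, 48.6 and 42.8 with PT2385, 65.6 and 65.4 with ICB, and 38.4 and 22.9 with the combination, below all other libraries in both combination pools, as was Uhrf1 (2 of 40 genes, against 6.83% of 9758 genes).

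No gene passed in regulatory T cells in edgeR or DESeq2. The counts at an unadjusted p under 0.05 were 1 of 39 for PT2385, 2 of 39 for ICB, 2 of 40 for the combination against ICB, 1 of 40 when it was set against untreated and 3 of 40 for the interaction, and the shares of all genes called were 0.0369%, 0.0123%, 0%, 0.0682% and 0%. All genes had an unadjusted p under 0.05 in 6.60%, 4.96%, 6.99%, 5.66% and 3.98% of cases in that order. The median log2 fold change of the tested genes was -0.23 for PT2385, 0.17 for ICB and -0.10 for the combination against ICB. Mcm5 had -1.01 ± 0.288 in the last comparison (SE, edgeR adjusted p = 0.376), and the interaction of Mki67 was 1.09 ± 0.340 (adjusted p = 0.986). The share of cells with both genes was 16.8% untreated (24 of 143), 16.2% and 13.3% with PT2385, 20.7% and 28.1% with ICB, and 15.5% and 25.0% with the combination. The libraries with ICB averaged 22.3% and those without 15.4% (exact permutation p = 0.114, adjusted p = 0.857). After thinning, the libraries with ICB (5.97% to 14.3%) overlapped those without (6.06% to 10.8%). The monocyte/macrophage markers summed to 1054 to 1707 CPM in this gate, and their part was not tested.

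NK cells gave 2 to 7 cells with both genes per library out of 68 to 292. Mcm6 stood at 102 CPM untreated, 85.6 and 97.1 with PT2385, 75.5 and 138 with ICB, and 57.2 and 81.1 with the combination, with overlap between the treatments. In this gate the T-cell markers summed to 672 to 1158 CPM and the monocyte/macrophage markers to 1462 to 1982. Cenpa measured 127 CPM untreated, 78.2 and 63.8 with PT2385, 89.9 and 122 with ICB, and 45.7 and 72.8 with the combination, so the 4 libraries with PT2385 lay below the 3 without (1 of 33 genes at 5 CPM or more, against 5.59% of 9324 genes). Its log2 fold change was -0.80 ± 0.178 (SE, edgeR adjusted p = 0.0633), and it passed without ICB pool 1 (adjusted p = 0.0442) and without the filter on low counts. For PT2385, 0 of 29 tested genes passed in edgeR (0.494% of 8098 genes did), 1 had an unadjusted p under 0.05 (10.3% of all genes), and DESeq2 called 0. ICB, both contrasts of the combination (against ICB, then against untreated) and the interaction had 0 genes past the threshold in edgeR and DESeq2, beside 0.0123%, 0.138%, 0.0115% and 0% of all genes, with 4, 6, 12 and 20 at an unadjusted p under 0.05. Such an unadjusted p was found in 3.80%, 7.70%, 7.80% and 5.50% of all genes in that order.

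In monocytes and macrophages Cenpa did not pass in edgeR either. It measured 48.5 CPM untreated, 22.8 and 24.2 with PT2385, 42.6 and 40.0 with ICB, and 33.4 and 24.5 with the combination. The 4 libraries with PT2385 lay below the 3 without, as they did for Tyms and Tk1, which makes 3 of the 27 genes at 5 CPM or more against 9.73% of 9091 genes. In this class and in NK cells that share is near the share over all genes. The log2 fold change of Cenpa was -0.73 ± 0.148 (SE, edgeR adjusted p = 0.0739). DESeq2 called it (1 of 40 genes), and over 14 alternatives its adjusted p ran from 0.000724 to 0.334, passing in 5, among them the fit without ICB pool 1 (0.0408). In T cells the libraries overlapped, with fold changes of 0.48 ± 0.213 in CD8 T, 0.24 ± 0.188 in conventional CD4 T and 0.08 ± 0.229 in regulatory T cells. Whether the effect on Cenpa differs between classes was not tested.

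In the monocyte/macrophage class, the largest difference was that of a single library. ICB pool 1 was above all 6 other libraries for 39 of the 40 genes, Cenpa being the exception, and its level was 5.27 times the median of the others at the median gene (range 1.47 to 12.4). Among genes at 5 CPM or more, 26 of the 27 proliferation genes were highest in this library, against 38.9% of all 9091 genes. Some of the 27, Hist1h2ae, Tpx2 and Cdk1 among them, lay below 5 CPM in the other 6 libraries. They reached that cut only through this pool, so the filter fixed their outcome. The pool was also chosen because it stood out in these values, so the count is a description and not a test. Mki67 measured 12.8 CPM untreated, 15.1 and 19.1 with PT2385, 71.6 and 18.7 with ICB, and 16.2 and 19.0 with the combination. Top2a measured 10.5 untreated, 11.1 and 16.4 with PT2385, 70.3 and 13.6 with ICB, and 11.6 and 18.7 with the combination. Stmn1 measured 13.8 untreated, 9.29 and 17.5 with PT2385, 116 and 17.2 with ICB, and 12.9 and 16.0 with the combination. For these 3 genes the 2 ICB pools differed from each other more than ICB pool 2 differed from any other library.

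S-phase genes of that pool were raised with the mitosis genes. Mcm3 measured 49.7 CPM in ICB pool 1 and 19.1 to 23.02 elsewhere, Mcm6 34.1 against 8.45 to 11.2, Pcna 121 against 61.8 to 72.9, and Hmgb2 297 against 144 to 184. Hist1h2ae, which encodes a histone H2A made for new chromatin, measured 34.0 CPM against 1.89 to 4.06. The sums were 446 CPM against 165 to 182 for S-phase genes and 822 against 257 to 307 for G2 and mitosis genes. The ratio of the sums was 0.543 in ICB pool 1 and 0.556 to 0.642 in the others. Cells with both Mki67 and Top2a made up 7.07% of the class in that pool (120 of 1697) and 0.996% to 2.32% in the others, or 3.34% and 0.104% to 0.547% after thinning.

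Other marker lists also differed in that pool. In its monocyte/macrophage gate the 8 border-type macrophage markers summed to 1373 CPM against 682 to 898 in the others, the 6 markers of type 2 conventional dendritic cells to 150 against 22.6 to 62.1, and those of type 1 to 250 against 111 to 159. The 14 monocyte/macrophage markers summed to 14269 CPM against 17496 to 22078. T-cell markers were no higher (17.9 CPM within 9.12 to 21.6). Cells with both genes in this pool had a median of 26375 UMIs against 10987 in the other cells of the class, and in the other libraries the medians were 17922.5 to 24204.5 against 9285 to 14738. The part of these differences in the levels of the proliferation genes was not tested.

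**Figure D4:**
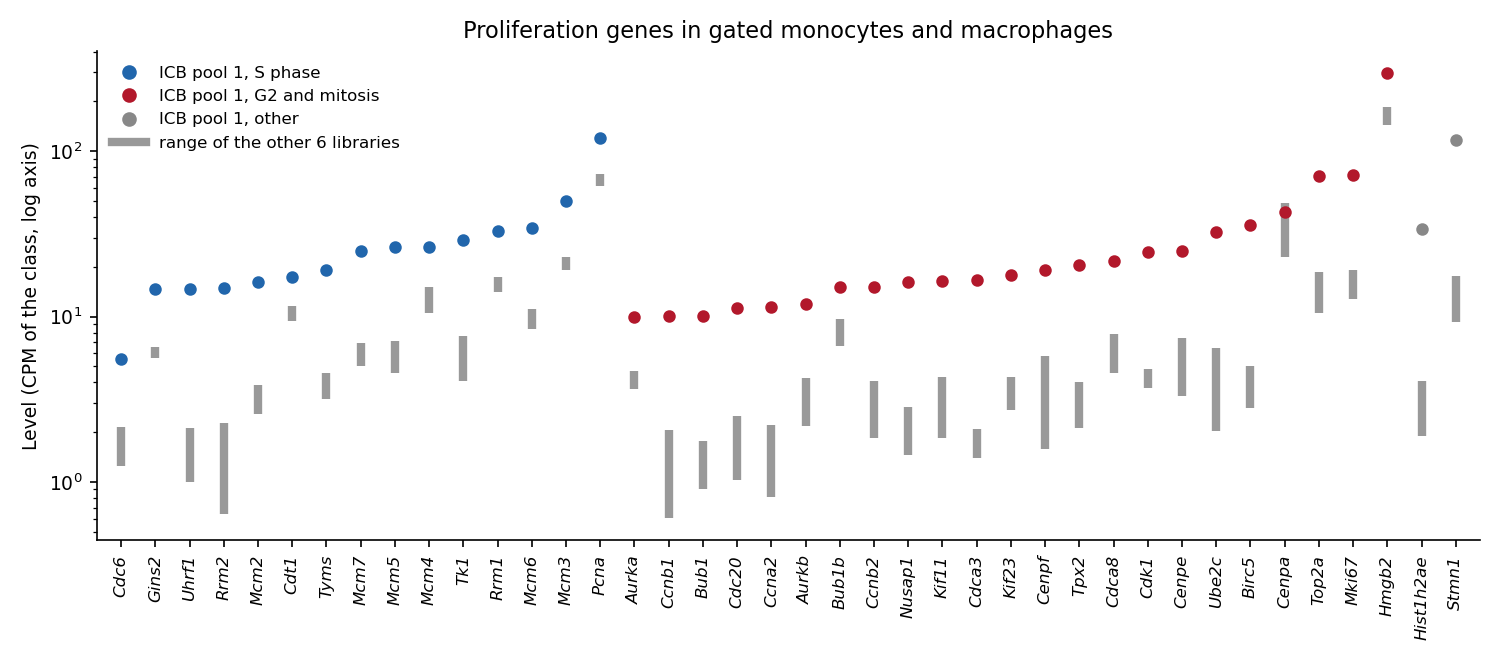
Levels of the 40 proliferation genes in gated monocytes and macrophages (CPM of the class, log axis): points are ICB pool 1 and grey bars span the lowest to highest of the other 6 libraries. The points lie above the bars for 39 genes; for Cenpa the point (42.6 CPM) lies inside the bar (22.8 to 48.5).

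Because 1 pool decides these values, group comparisons in this class depend on it. For PT2385, 0 of 40 genes passed in edgeR (0.408% of 14471 genes did), and all 40 had negative fold changes with a median of -0.69. Of the 40, 4 had an unadjusted p under 0.05, against 21.1% of all genes. Without ICB pool 1, by contrast, the median was 0.10, Cenpf and Ube2c rose and Cenpa fell. For the combination against ICB, 0 of 40 passed in edgeR (0% of 15234 genes), and all 40 were negative with a median of -1.35. In that comparison 8 had an unadjusted p under 0.05, against 12.2% of all genes, and DESeq2 called 1 (Tk1). Without ICB pool 2, which leaves ICB pool 1 as the lone ICB library, the log2 fold change of Tk1 was -2.62, against -1.98 with all libraries. ICB, the contrast of combination with untreated and the interaction had 0 genes past the threshold in edgeR (0% of genes in each), with 0, 1 and 1 at an unadjusted p under 0.05, and DESeq2 called 0, 1 (Cenpa, lower) and 0. The shares of all genes with such an unadjusted p were 8.60%, 10.2% and 3.24% in that order.

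In microglia, the resident macrophages of the brain, the summed G2 and mitosis genes were lower in both combination pools than in any single-treatment library. That is the reverse of CD8 T cells. Against the untreated library the signs of the fold changes were mostly shared, but the sums in microglia changed little. Summed S-phase genes measured 158 and 164 CPM with the combination and 171 untreated, and G2 and mitosis genes 166 and 190 against 163. None of the 40 genes passed in microglia in the comparison with the untreated library (smallest edgeR adjusted p = 0.405). In that comparison 30 of the 40 genes had positive log2 fold changes in microglia and 10 negative ones (median 0.57), and all 40 were positive in CD8 T cells. Mki67 had 0 UMIs in the 269 untreated microglia and stood at 24.1 and 27.5 CPM with PT2385, 12.3 and 30.1 with ICB, and 2.98 and 6.09 with the combination. Top2a stood at 2.03 CPM untreated, 33.3 and 29.3 with PT2385, 8.52 and 39.3 with ICB, and 3.46 and 9.17 with the combination. Mcm5 stood at 1.52 untreated, 9.18 and 9.85 with PT2385, 7.73 and 10.4 with ICB, and 2.31 and 2.80 with the combination. Mcm6 stood at 4.56 untreated, 16.1 and 15.5 with PT2385, 12.5 and 18.5 with ICB, and 6.92 and 6.16 with the combination. For Mki67, Mcm5 and Mcm6 the combination pools and the untreated library lay below all 4 libraries given a single treatment. Top2a of combination pool 2 lay above ICB pool 1. Mcm5, with a mean below 20 CPM, is named with its values in view.

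Pcna, Hmgb2 and Mcm3, whose levels in microglia were higher, spanned a smaller relative range. Pcna measured 92.7 CPM untreated, 65.8 and 64.2 with PT2385, 79.9 and 75.3 with ICB, and 73.4 and 68.0 with the combination. Hmgb2 measured 128 untreated, 134 and 148 with PT2385, 131 and 174 with ICB, and 120 and 110 with the combination. Mcm3 measured 32.4 untreated, 37.9 in each PT2385 pool, 33.5 and 43.9 with ICB, and 29.9 and 28.5 with the combination. The summed S-phase genes gave 171 CPM untreated, 224 and 228 with PT2385, 211 and 250 with ICB, and 158 and 164 with the combination, and the G2 and mitosis genes 163, 401 and 367, 237 and 461, and 166 and 190.

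In the combination against ICB alone, Mcm5 fell in microglia by 1.84 on the log2 scale ± 0.286 (SE, edgeR adjusted p = 0.0449), the only one of the 40 genes to pass, against 0.228% of 12728 genes (0.189% lower). All 40 had negative fold changes with a median of -1.51 (-0.01 over all genes), and 32 had an unadjusted p under 0.05 against 11.2% of all genes. Mcm6 (-1.28 ± 0.223 SE, edgeR adjusted p = 0.0701, equal to that of Ube2c) and Mki67 (-2.21 ± 0.409, adjusted p = 0.0813) did not pass. DESeq2 called 5 genes lower (Mcm5, Mki67, Birc5, Ube2c and Stmn1), a count given without the share of all genes called, which shows only dependence on the method. The call on Mcm5 was lost in 5 of 13 alternatives, each of them the omission of 1 library other than the untreated library and ICB pool 1. Over the 13 alternatives the log2 fold change of Mcm5 ran from -2.06 to -1.57. Both combination pools were below both ICB pools for 22 of the 26 genes at 5 CPM or more, against 20.1% of 10049 genes.

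The effect of PT2385 on Mcm5, Mki67 and Mcm6 in microglia differed between mice with and without ICB. The interaction passed for these 3 genes and no other of the 40 (edgeR adjusted p = 0.0299, 0.0366 and 0.0481), against 0.244% of 12728 genes (0.189% lower), and 36 of 40 had an unadjusted p under 0.05 against 14.7% of all genes. DESeq2 called 14 genes, again without the share of all genes called, so this count shows only dependence on the method. The untreated library bears on this result through its 269 cells alone, none of which held both Mki67 and Top2a, a count of 0 that allows a share of up to 1.12%. The 3 calls were lost without either PT2385 pool and when 1 more microglia marker was required of a cell (edgeR adjusted p = 0.0514 to 0.0530 in that last case). Single calls were also lost for Mcm5 without ICB pool 2 (0.0502), for Mcm6 without combination pool 2 (0.0586) and with the strict cell filter (0.0531), and for Mki67 with doublets kept (0.0538).

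Cells with both genes numbered 0 of 269 microglia untreated, 6 of 255 and 8 of 355 with PT2385, 7 of 604 and 14 of 492 with ICB, and 2 of 986 and 6 of 1575 with the combination. The shares were 0% untreated, 2.35% and 2.25% with PT2385, 1.16% and 2.85% with ICB, and 0.203% and 0.381% with the combination, the combination pools lying within the exact 95% interval of the choroid plexus background (0.00189% to 0.415%). After thinning they were 0%, 1.26% and 1.19%, 0.357% and 1.27%, and 0.109% and 0.335%, with 16 to 81 shallower cells left out of a library. PT2385 as a main effect (libraries with it 1.30%, without it 1.33%) gave an exact permutation p of 0.971 and ICB one of 0.714. Main effects on genes come from the additive model, which leaves out the interaction and so does not estimate either treatment alone. Its median log2 fold changes were -0.61 for PT2385 and -0.78 for ICB. Yet the summed G2 and mitosis genes were higher in every single-treatment library than in the untreated one. As main effects on genes, PT2385 and ICB each had 0 of 40 genes past the threshold in edgeR and DESeq2, with 1 at an unadjusted p under 0.05 for each, beside 0% and 0.00821% of all genes, and the combination against untreated had 0 as well, with 3 (0.055% of genes called). For these comparisons 4.80%, 13.0% and 9.05% of all genes had an unadjusted p under 0.05, in that order.

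Markers of other myeloid cells moved with these values. The 14 monocyte/macrophage markers, all detected, summed in the microglia gate to 759 CPM untreated, 1128 and 1358 with PT2385, 839 and 1576 with ICB, and 663 and 584 with the combination, with Lyz2 the most abundant. The 8 border-type macrophage markers, 1 of them at 0 in all libraries, summed to 48.1 CPM untreated, 104 and 71.7 with PT2385, 90.9 and 123 with ICB, and 24.1 and 45.4 with the combination. Both sums were lowest in the combination pools and highest in ICB pool 2. The summed G2 and mitosis genes were also highest in ICB pool 2, and lowest in the untreated library. The 10 microglia markers ranged from 11173 to 15996 CPM, and the T-cell markers from 11.6 to 54.4 CPM, highest in combination pool 1. Their part in the levels of the proliferation genes was not tested. The choroid plexus markers, mostly Ttr, ran from 0.506 CPM in the untreated library to 261 and 295 CPM in the combination pools.

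**Figure D5:**
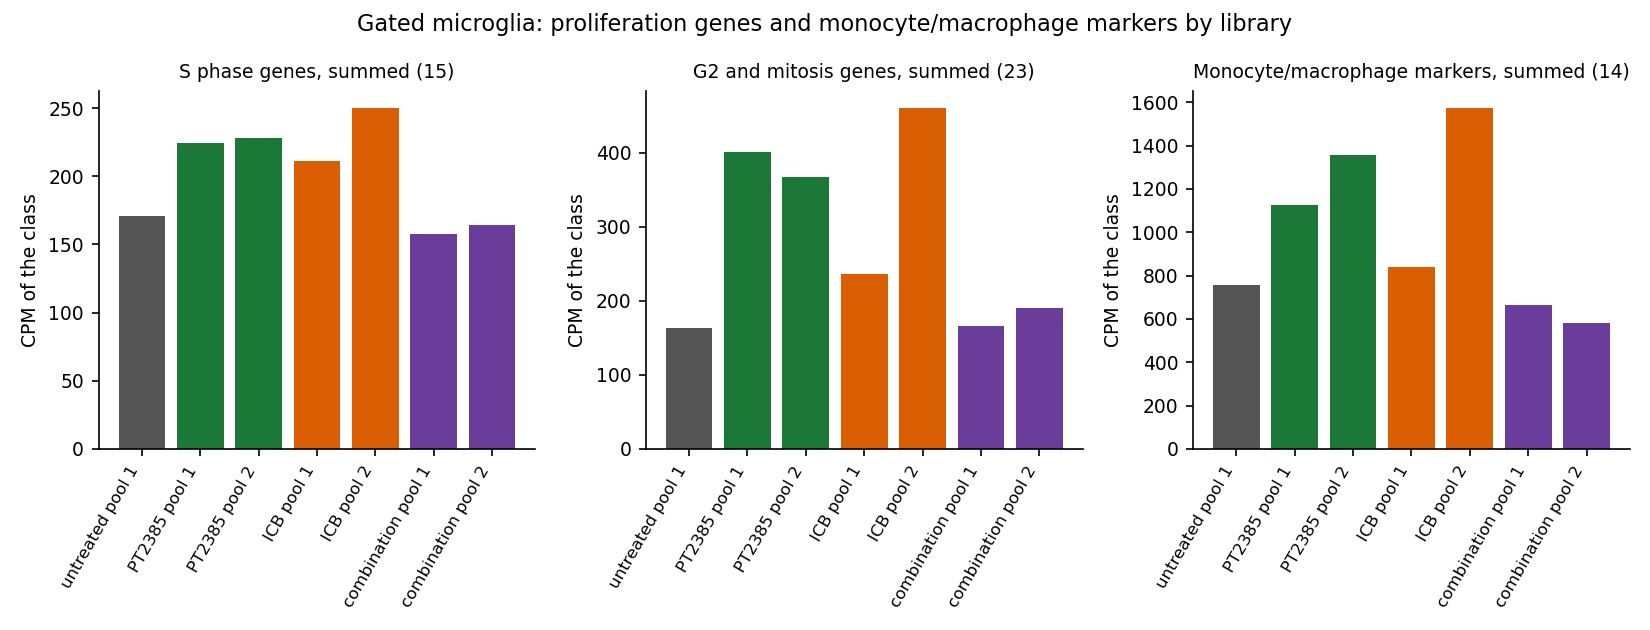
Gated microglia by library (bars from 0, CPM of the class): summed S-phase genes (15), summed G2 and mitosis genes (23) and summed monocyte/macrophage markers (14). The untreated library and both combination pools are lowest for all 3 sums, and ICB pool 2 is highest at 250, 461 and 1576 CPM.

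Migratory dendritic cells had 1 to 4 cells with both genes per library, of 55 to 184. Hmgb2 measured 158 CPM untreated, 93.6 and 91.2 with PT2385, 168 and 135 with ICB, and 221 and 112 with the combination, so the pools given PT2385 alone were lowest. Top2a measured 29.6 untreated, 19.3 and 14.0 with PT2385, 24.2 and 12.2 with ICB, and 65.8 and 11.9 with the combination, so the 2 combination pools were the highest and the lowest library. Only 18 of the 40 genes passed the filter on low counts in the additive model and 26 in the model with 1 mean per group, and 0 passed a test in edgeR or DESeq2. The counts at an unadjusted p under 0.05 were 0 for PT2385, for ICB, and for both contrasts of the combination, and 3 for the interaction, beside 0.0375%, 0.0125%, 0%, 0.0114% and 0% of all genes called. An unadjusted p under 0.05 was found in 7.51%, 6.63%, 6.36%, 5.53% and 3.41% of all genes, with the contrast against ICB before that against untreated.

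Of the 14 comparisons of shares between libraries with and without a treatment, none passed (exact permutation tests, adjusted p of at least 0.857). The tests of genes recovered simulated 2-fold changes in 58% to 84% of cases for PT2385 and 56% to 74% for ICB over the classes, but in 35% to 75% for the combination against ICB, 13% to 44% against the untreated library and 7% to 26% for the interaction. Recovery for the 40 proliferation genes alone was not tested. In monocytes and macrophages, 0 of the 40 passed for the combination against ICB, at a median log2 fold change of -1.35. Further cell-cycle genes outside the 40, in lists of G1 to S regulators, S-phase genes and mitotic genes, had 0 members past the threshold in each of the 7 classes and 5 comparisons in edgeR.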

How the data were processed

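Single-cell RNA-seq libraries (10x 3′ chemistry) of sorted leukocytes from 7 pools of 2 mice were used. The deposited matrices hold UMI counts per gene and barcode, not normalized, made with Cell Ranger 7.0.0 per the file headers; the submitters' processing notes give Cell Ranger 2.2.0, Seurat 5 and GRCm39. Depth was 59839154 to 81960504 UMIs per library, and columns not used numbered 0. Barcodes needed 300 or more detected genes and no more than 10% of UMIs from mitochondrial genes, and those with the highest Scrublet scores (scanpy, expected rate 5%) were removed at 0.8% per 1000 barcodes, because the automatic threshold marked few cells. Cells were gated by the number of markers detected, with minimums set after the marker counts per cell were seen.

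Counts were summed per class and library and tested with edgeR's quasi-likelihood test with TMM normalization and its filter on low counts, Benjamini-Hochberg adjusted over all genes tested, threshold 0.05. PT2385 and ICB came from an additive model, and the combination contrasts and the interaction from a model with 1 mean per group. Replicates are pools of mice, so p-values measure the spread between pools. Shares were compared with two-sided exact permutation tests, and between classes after thinning each cell to 3000 UMIs. Intervals (95%, exact Clopper-Pearson) and the limit for a count of 0 (3 counts) cover counting error only. The members and lists were chosen with earlier results of these data known. Genes named were Mki67, Top2a, the 3 S-phase and 3 G2 and mitosis genes of highest mean level, and in each comparison the genes that passed at a mean of 20 CPM or more, or else the 2 with the smallest p; the others named were chosen after their values were seen. Alternatives were each library left out, DESeq2, RLE size factors, all genes without the filter, retention of doublets, stricter limits on cells (500 genes, 5% mitochondrial), 1 marker more, thinning to 5000 UMIs or none, and at least 2 UMIs of each gene. Counts of genes called under an alternative are given without the share of all genes called, so they show only dependence on the setting. The tests were tested on simulated data. Versions were Python 3.11.15, numpy 2.4.6, scipy 1.17.1, pandas 2.3.3, scanpy 1.11.5, matplotlib 3.10.9, R 4.3.3, edgeR 4.0.16, limma 3.58.1 and DESeq2 1.42.0.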

Additional observations from a re-analysis of the deposited data

Results flagged for a closer look

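In monocytes and macrophages, ICB pool 1 stood apart from the other 3 libraries with ICB in the share of cells with both Mki67 and Top2a (7.07%), in the summed S-phase genes (446 CPM) and in the summed G2 and mitosis genes (822 CPM). PT2385 pool 1 was apart from the other 3 libraries with PT2385 in the same class, with a low sum of G2 and mitosis genes (257 CPM). In migratory dendritic cells, combination pool 1 was apart from the other libraries with PT2385, with a sum of 487 CPM for those genes. Such a gap was found in 5 of 42 sets of 4 libraries checked. Chance alone gives about 1 in 20 for independent values of 1 group. Each set here joins a single treatment with the combination, and the sets share libraries and cells, so that rate is no measure for this count.

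In microglia, the interaction of PT2385 and ICB passed for Mki67 (edgeR, adjusted p = 0.0366), Mcm5 (0.0299) and Mcm6 (0.0481). It rests on 1 untreated library of 269 microglia, in which Mki67 had 0 UMIs. All 3 calls were lost without either PT2385 pool and with 1 microglia marker more. Monocyte/macrophage markers in the gate also varied between libraries, and their part was not tested.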

How the results depend on the processing

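No paired analysis was possible because the labels give no replicate numbers, and pools were numbered in accession order. Fits that leave 1 library in a group assume that it varies like the others; the causes of the changes below were not tested.

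Effects of a treatment on the share of cells with both genes (percentage points) changed sign as follows. In NK cells PT2385 gave -0.484 with thinning to 5000 UMIs and ICB -0.104 with 1 marker more. In microglia PT2385 gave 0.180 and 0.424 with thinning to 3000 and 5000 UMIs, 0.287 with at least 2 UMIs of each gene, 0.00136 with doublets kept and 0.0894 with the strict cell filter. In migratory dendritic cells PT2385 gave 0.0689 with doublets kept and ICB -0.326 with thinning to 5000. CD8 T minus regulatory T was -3.04 with thinning to 5000 and -3.34 without, and microglia minus migratory dendritic cells -0.110 and -0.727. With each library left out, the effect of PT2385 ran from -0.510 to 1.10 in NK cells, -0.705 to 0.718 in microglia, -0.560 to 0.280 in migratory dendritic cells and -2.38 to 0.660 in monocytes and macrophages, and that of ICB from -0.111 to 1.47 in conventional CD4 T cells and -1.16 to 0.0203 in microglia. The steps between classes ran from -0.759 to 1.01 (CD8 T minus regulatory T), 6.57 to 7.95 and 1.16 to 1.499 (the 2 that passed, which 6 libraries are too few to pass after adjustment), -0.104 to 0.652, -0.388 to 0.272 and -0.0867 to 0.324.

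Counts of genes called moved as follows without the filter on low counts. In CD8 T cells 7, 18, 5 and 19 rose (PT2385, ICB, combination against ICB, combination against untreated), and 1 rose and 1 fell in the interaction. In NK cells 1 fell with PT2385, 2 rose with ICB, 4 fell against ICB, 5 rose and 1 fell against untreated and 13 fell in the interaction. In conventional CD4 T cells 1, 1, 7, 1 and 6 rose. In microglia 3, 11 and 25 fell, 1 rose against untreated and 29 fell in the interaction. In migratory dendritic cells 1 rose in the interaction and in monocytes and macrophages 1 fell with PT2385. DESeq2 called 2 (ICB) and 1 (against untreated) in CD8 T cells, 5 and 14 in microglia (against ICB, interaction) and 1, 1 and 1 in monocytes and macrophages (PT2385, against ICB, against untreated). In microglia against ICB, 2 fell with doublets kept and 4 with 1 marker more, and the interaction then had 0.

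With each library left out, counts ran from 0 to 1, 0 to 3 and 0 to 2 risen in CD8 T cells (ICB, against ICB, against untreated), 0 to 1, 0 to 1 and 0 to 2 fallen in NK cells (PT2385, against ICB, interaction) and 0 to 1 risen in conventional CD4 T cells (against ICB and interaction). In microglia 0 to 1, 0 to 15, 0 to 18 and 0 to 22 fell (PT2385, ICB, against ICB, interaction). In monocytes and macrophages 0 to 2 rose and 0 to 2 fell with PT2385, 0 to 39 fell against ICB, 0 to 2 rose against untreated and 0 to 20 fell in the interaction. Hmgb2 in migratory dendritic cells with ICB was -0.042 (log2) for ICB alone against untreated. Depth limits the small classes, where few cells held both genes.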
